A study of Mus musculus with 6 samples.

Results

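Macrophages are among the first immune cells to settle in the embryonic lung, and 10 genes that mark them were examined: *Csf1r*, *Cx3cr1*, *Adgre1*, *Aif1*, *Cd68*, *Lyz2*, *C1qa*, *C1qb*, *Mrc1* and *Ptprc*. They were chosen by name as genes known from fetal macrophages, and they were looked up by gene symbol among the 23420 genes of the deposited table. The table lists 9 of them under these symbols and *Adgre1* under its older symbol *Emr1*. All 10 passed the filter on low values.

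The data are RNA-Seq libraries of whole mouse lungs at E11.5, from 3 pools of control lungs (Raptorf/+; ShhCre/+) and 3 pools of mutant lungs (Raptorf/f; ShhCre/+). Both groups carry ShhCre, which by the study's methods is expressed broadly in the lung epithelium, so that control lungs had lost 1 copy of *Rptor* in the epithelium and mutant lungs both copies. *Rptor* encodes Raptor, a subunit of the growth-controlling kinase complex mTORC1, and the comparison asks how gene expression differs between mTORC1-deficient and control lungs. By the study's methods, each pool combined 3 or 4 lungs of 1 genotype, and controls were littermates of mutants. Which litters went into which pool is not given in the sources used here, and p-values measure the spread between pools.

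Fetal macrophages arise from progenitors of the yolk sac and the fetal liver, enter organs with the blood and divide in place. They depend on the receptor kinase encoded by *Csf1r*, whose ligands CSF1 and IL-34 are made by neighbouring cells, and their gene program is driven by the transcription factor PU.1, encoded by *Spi1*. In developing organs they are known for clearing dead cells and for contacts with growing vessels and epithelium. In whole-lung RNA, fewer cells of a type and less RNA per cell cannot be told apart.

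In total, the normalized counts (read numbers per gene, scaled to make libraries comparable) came to between 20705058 and 20865998 per library, and the 10 macrophage genes together to between 2202 and 3204. The mRNA of the targeted gene *Rptor* was counted over the whole gene in all cells of the lung. It had a mean of 2199 ± 77.0 for the 3 control pools and of 2103 ± 69.1 for the 3 mutant pools (± SD). The groups overlapped (log2 difference -0.06, limma adjusted p = 0.584). The study reports less Raptor protein in purified epithelial cells of mutant lungs at a later stage, and less mTORC1-dependent phosphorylation in mutant epithelium. Control pool 3 stood apart for the genes described here. For 7 of the 10 genes it had the lowest value of the 6 libraries, while it had the lowest value for 24.3% of the 17168 genes tested. Differences without this pool are therefore given for each of the 10 genes.

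The promoters shown here are those with a match to the letters AGGAAGT, 1 of the sequences that PU.1 and other ETS factors are known to bind, read on either strand. The motif was chosen after the sequences had been read. A RefSeq promoter window of 300 bases (250 before and 50 after the transcript start, GRCm38.p6) was found for 7 of the 10 genes, and 4 of these hold a match, as do 9.35% of all 32851 windows of this length. Capitals mark the match, written as AGGAAGT or, on the other strand, as ACTTCCT. Sequences run 5′ to 3′ along the gene.
*C1qb*, chr4:136886151-136886450, minus strand: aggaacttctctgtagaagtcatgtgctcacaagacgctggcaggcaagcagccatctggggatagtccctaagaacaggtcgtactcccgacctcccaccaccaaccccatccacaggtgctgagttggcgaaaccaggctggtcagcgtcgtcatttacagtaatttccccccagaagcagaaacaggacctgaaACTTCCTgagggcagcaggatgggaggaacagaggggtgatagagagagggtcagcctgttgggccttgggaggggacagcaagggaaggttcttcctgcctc
*Lyz2*, chr10:117282223-117282522, minus strand: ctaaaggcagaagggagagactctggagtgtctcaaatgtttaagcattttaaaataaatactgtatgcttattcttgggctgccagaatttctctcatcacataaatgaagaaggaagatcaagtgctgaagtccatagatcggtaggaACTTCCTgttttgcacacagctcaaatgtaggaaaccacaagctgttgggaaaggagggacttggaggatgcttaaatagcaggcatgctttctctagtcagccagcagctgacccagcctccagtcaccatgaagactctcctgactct
*Mrc1*, chr2:14229164-14229463, plus strand: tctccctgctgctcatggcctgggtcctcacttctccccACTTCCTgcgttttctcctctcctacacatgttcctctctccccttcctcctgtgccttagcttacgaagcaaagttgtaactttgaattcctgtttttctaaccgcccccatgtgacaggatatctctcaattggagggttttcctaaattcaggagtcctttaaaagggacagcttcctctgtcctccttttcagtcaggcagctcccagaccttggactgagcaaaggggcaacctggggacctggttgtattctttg
*Ptprc*, chr1:138175256-138175555, minus strand: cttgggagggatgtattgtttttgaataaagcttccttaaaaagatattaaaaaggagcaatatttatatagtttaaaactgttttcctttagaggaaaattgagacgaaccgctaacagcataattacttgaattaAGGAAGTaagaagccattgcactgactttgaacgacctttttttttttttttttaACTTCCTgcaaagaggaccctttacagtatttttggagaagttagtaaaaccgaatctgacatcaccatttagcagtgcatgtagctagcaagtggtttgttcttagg
The matches begin 53 bases before the start in *C1qb*, 100 in *Lyz2*, 211 in *Mrc1*, and 113 and 58 in *Ptprc*, for which 1 of 2 listed windows is shown. The windows of *Cx3cr1*, *Aif1* and *Cd68* hold no match, which says only that these letters are not in them.

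Of the 10 macrophage genes, 0 had an adjusted p under 0.05 between mutant and control lungs (limma on log2(normalized count + 1), Benjamini-Hochberg over all tested genes), where 0.501% of tested genes did, 0.186% as higher and 0.315% as lower in mutant lungs. At an unadjusted p under 0.05 the count was also 0, against 13.6% of tested genes, 6.67% higher and 6.89% lower. On recovered reads of 5 libraries, edgeR called 0 of the 10 and 3.68% of its genes, and DESeq2 called 0 of the 10 and 2.2% of its genes. The means were nevertheless on one side. All 10 log2 differences (mutant minus control) were above 0, from 0.02 for *Lyz2* to 0.23 for *C1qa*, with a median of 0.12, while 49.5% of all tested genes were above 0 and their median was -0.002. Among tested genes, 9.77% had all mutant pools above all control pools and 10.5% had them all below, while for every one of the 10 genes the values of both groups overlapped and the 95% interval of the difference included 0.

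**Figure D1:**
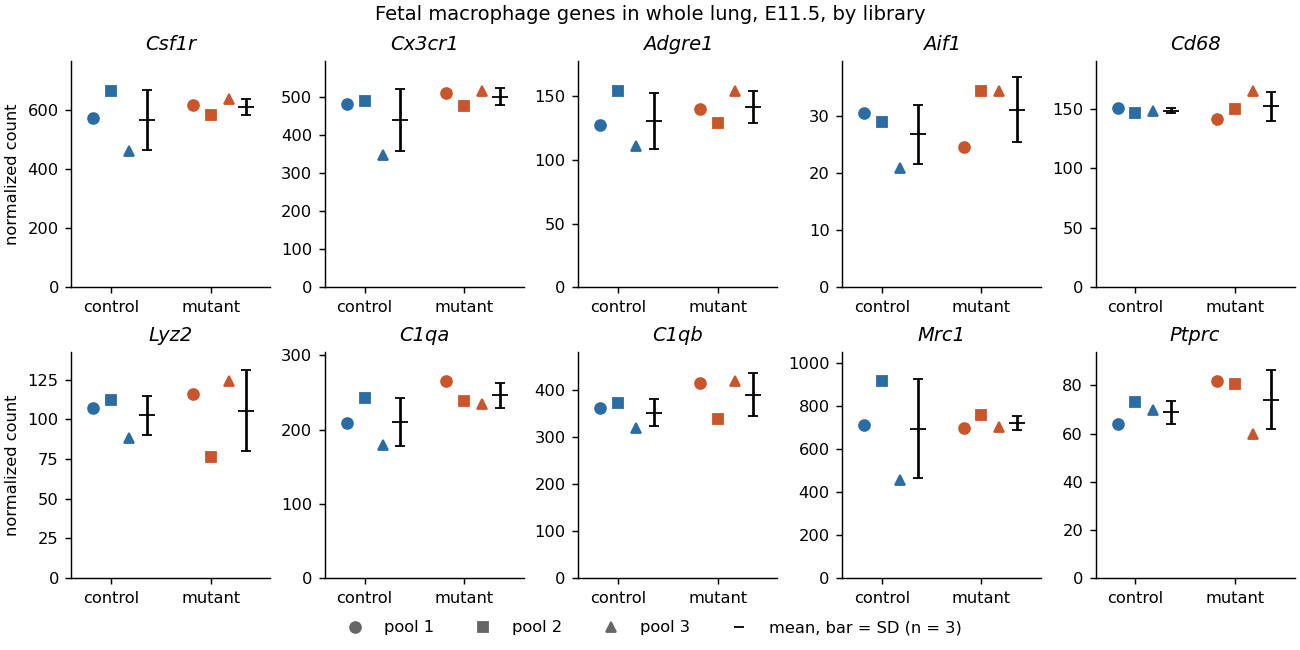
Normalized count (vertical axis, from 0) of each of the 10 macrophage genes in the 3 control pools (blue) and 3 mutant pools (orange), with the mean and SD of each group in black. The groups overlap for every gene, and control pool 3 (blue triangle) is lowest for 7 of the 10.

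Receptors. *Csf1r*, the receptor that macrophages need to live and divide, was counted at 572, 666 and 463 in control pools 1, 2 and 3, respectively, after normalization. Mutant pools 1, 2 and 3 had 617, 582 and 636, and all values for single pools are given in this order. The highest and the lowest value both came from control pools, and the mutant pools lay between them. The log2 difference came to 0.12 (95% interval -0.13 to 0.38, limma adjusted p = 0.68), and without control pool 3 it was -0.01. *Csf1r* shares 873 exon bases with *Hmgxb3* on the other strand (GENCODE M21), and the strand setting of the count is not given in the sources used here.

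*Cx3cr1*, the receptor for the chemokine CX3CL1, lies on chromosome 9 of GRCm38 from 119901616 to 120069879. It was at 482, 491 and 347 in the control pools against 511, 476 and 517 in the mutant pools. Control pools 1 and 2 fell within the range of the mutant pools, and control pool 3 lay well below all others. The log2 difference of 0.20 (95% interval -0.07 to 0.47, adjusted p = 0.496) came to 0.04 without control pool 3. *Cx3cr1* shares 78 exon bases with *Gm33858* on the other strand. The ratio of *Cx3cr1* to *Csf1r* within a library, which does not depend on the size factor, was 0.78 ± 0.06 (SD, n = 3) in control and 0.82 ± 0.01 (SD, n = 3) in mutant pools.

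*Adgre1* encodes F4/80, the surface protein used to identify mouse macrophages, and lies on chromosome 17 from 57358691 to 57483527. Its counts were 127, 154 and 110.3 in the control pools against 140.0, 129 and 154 in mutant pools. Control pool 2 reached the level of the highest mutant pool. The log2 difference was 0.12 (95% interval -0.20 to 0.45, adjusted p = 0.755), and 0.01 without control pool 3.

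*Mrc1*, the mannose receptor CD206 (chromosome 2, 14229392 to 14332057), takes up glycoproteins in macrophages and in some endothelial cells. It had the widest spread of the 10 genes, with counts of 715, 917 and 456 in the control pools against 699, 759 and 706 in the mutant pools. All mutant pools lay inside the range of the controls. Its log2 difference was 0.11 with all pools (95% interval -0.32 to 0.54, adjusted p = 0.857) and -0.17 without control pool 3.

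*Lyve1*, *Stab1* and *Stab2*, which are known from endothelium and from some macrophages, followed the same order in the control pools. *Lyve1* was at 309, 373 and 148 there and *Stab1* at 1792, 2087 and 1514. In mutant pools *Lyve1* was at 317, 419.6 and 315 and *Stab1* at 2012, 1990 and 1983. The ratio of *Mrc1* to *Stab1* ranged from 0.30 in control pool 3 to 0.44 in control pool 2. The ratio of *Mrc1* to *Lyve1* went the other way, with its highest value in control pool 3 (3.08) and means of 2.62 ± 0.41 for control and 2.08 ± 0.24 for mutant pools (SD, n = 3, not tested). *Lyve1* and *Stab1* were named after their values were seen. How much of the *Mrc1* signal came from endothelium was not tested.

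*Ptprc* encodes CD45, the phosphatase on the surface of all white blood cells (chromosome 1, 138062861 to 138175708). Its counts were 63.8, 73.3 and 69.6 in the control pools against 81.7, 80.4 and 59.9 in mutant pools. The lowest value was that of mutant pool 3, and control pool 3 was not low for this gene. The log2 difference came to 0.09 (95% interval -0.29 to 0.47, adjusted p = 0.866), and 0.10 without control pool 3.

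Complement. *C1qa* and *C1qb* encode the A and B chains of C1q, the first component of the classical complement cascade, which also tags dead cells for uptake. With *C1qc*, the C chain, they form a cluster on chromosome 4. *C1qa* (136895917 to 136898803) was at 209, 243 and 179 in the control pools against 265, 239 and 234 in mutant pools. Only control pool 2 reached into the range of the mutant pools. Its log2 difference of 0.23 was the largest of the 10 and had the lowest p (95% interval -0.04 to 0.50, unadjusted p = 0.0823, limma adjusted p = 0.43), and it came to 0.12 without control pool 3.

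*C1qb* (136880129 to 136886187) was at 363, 373 and 319 in the control pools against 415, 338 and 419 in the mutant pools. The lowest mutant pool lay below 2 of the 3 control pools. The log2 difference was 0.15 (95% interval -0.08 to 0.38, adjusted p = 0.572), and 0.08 without control pool 3. *C1qc* stood at 299 ± 40.9 (SD, n = 3) in control and 326 ± 13 (SD, n = 3) for mutant lungs, a log2 difference of 0.14 (adjusted p = 0.612). The ratio of *C1qa* to *C1qb* was 0.60 ± 0.05 in control and 0.63 ± 0.08 in mutant pools, and that of *C1qc* to *C1qb* 0.85 ± 0.07 and 0.84 ± 0.07 (SD, n = 3).

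Lysosome, secretion and cytoskeleton. *Cd68*, a glycoprotein of the macrophage lysosome (chromosome 11, 69664213 to 69666153), had the smallest spread of the 10 genes relative to counting error. Its counts were 150.3, 146 and 148 in the control pools against 141, 150.0 and 165 in mutant pools. Control pool 3 did not stand apart, and the log2 difference was 0.03 (95% interval -0.21 to 0.28, adjusted p = 0.919) and 0.04 without it.

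*Lyz2* encodes lysozyme, an enzyme that cuts bacterial cell walls and that macrophages and granulocytes both make (chromosome 10, 117277331 to 117282321). It was at 107, 112 and 88.5 in the control pools against 116, 76.5 and 124 in mutant pools, so that mutant pool 2 was lowest. Its log2 difference was 0.02 (95% interval -0.41 to 0.45, adjusted p = 0.975), and -0.08 without control pool 3. *Lyz1*, its near-identical neighbour, had at most 2.07 normalized counts in a library, and how reads shared by both genes were assigned is not given in the sources used here.

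Granulocyte genes differed among themselves in control pool 3 and mutant pool 2, the libraries with low *Lyz2*. *Ngp*, a granule protein gene, was at 34.4, 44.4 and 3.98 in the control pools against 50.1, 9.80 and 28.5 in mutant pools. It was thus low in both. Control pool 3 and mutant pool 2 were also the lowest of their groups for *S100a8*, *S100a9*, *Camp* and *Ltf*. Their counts there were 2.98 and 6.86, 6.96 and 6.86, 0.994 and 3.92, and 4.97 and 4.9, respectively. *Mpo*, *Prtn3* and *Csf3r*, which encode early granule enzymes and the G-CSF receptor, went the other way, with their highest values of all libraries in mutant pool 2 (90.2, 70.6 and 80.4), and *Prtn3* and *Csf3r* were higher in control pool 3 (58.6 and 63.6) than in the other control pools. The mean log2 level of 11 monocyte and granulocyte genes, relative to all 6 libraries, was -0.70 in control pool 3 and -0.23 in mutant pool 2. *Ngp*, *S100a9*, *Camp*, *Ltf* and *Csf3r* were named after their values were seen. The part of these cells in the *Lyz2* values was not tested.

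*Aif1* encodes IBA1, a calcium-binding protein of the macrophage cytoskeleton (chromosome 17, 35170991 to 35176068). It had the lowest counts of the 10 genes, at 30.4, 28.9 and 20.9 in the control pools against 24.5, 34.3 and 34.4 in mutant pools. The groups overlapped, and the log2 difference of 0.21 had the widest interval (-0.34 to 0.76, adjusted p = 0.756). Without control pool 3 it came to 0.05. The 5 libraries whose reads were recovered held 24 to 35 reads of *Aif1*.

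**Figure D2:**
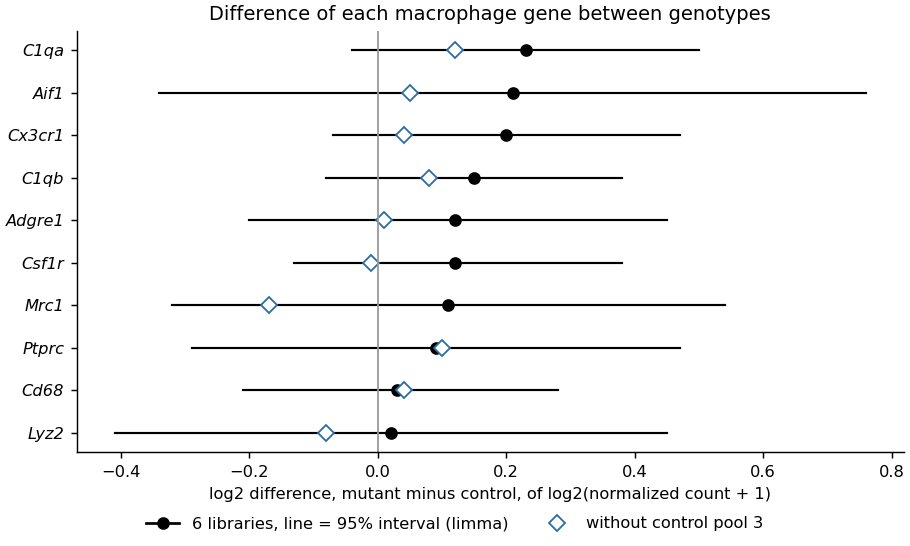
Log2 difference between mutant and control pools (horizontal axis) for each of the 10 genes, with the 95% interval from limma over 6 libraries (black) and the value without control pool 3 (blue diamond). Every interval includes 0, and without control pool 3 the differences lie between -0.17 (*Mrc1*) and 0.12 (*C1qa*).

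Leaving out control pool 3 lowered the differences of 8 of the 10 genes, all but *Cd68* and *Ptprc*. Of the 10 log2 differences, 7 were then above 0, against 50.9% of the genes tested without that pool, and their median was 0.04. Leaving out control pool 2 instead gave a median of 0.25, with all 10 above 0. In both cases 0 of the 10 genes passed the adjusted threshold, while 2.75% of all genes did without control pool 3.

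The spread between pools was compared with counting error, taken as the square root of the mean count. The SD within groups, pooled over both groups, was 6.20 times that value for *Mrc1*, 3.06 times for *Csf1r* and 2.73 times for *Cx3cr1*. For these genes the excess lay in the control pools, with SDs of 231, 102 and 80.7, respectively. The mutant pools had SDs of 32.8, 27.2 and 22.5, against counting errors of 26.6, 24.3 and 21.7. It was close to counting error for *Aif1* (1.01 times) and *Ptprc* (1.10 times) and below it for *Cd68* (0.71 times). For *C1qb*, *Lyz2*, *C1qa* and *Adgre1* it was 1.98, 1.96, 1.68 and 1.53 times counting error.

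The genes also differed in how far they followed each other. Over the 6 libraries, the correlation of a gene's log2 values with the mean of the other 9 was 0.99 for *Csf1r*, 0.96 for *Cx3cr1*, 0.92 for *Adgre1*, 0.85 for *C1qa*, 0.83 for *Mrc1* and 0.76 for *C1qb*. It was 0.56 for *Aif1*, 0.45 for *Lyz2*, 0.11 for *Cd68* and -0.08 for *Ptprc*. These are descriptions over 6 libraries that share their size factors, and control pool 3 has the lowest value of 7 of the genes.

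Levels were compared between genes as normalized counts per kilobase of the longest coding transcript in GENCODE M21. On this scale *C1qb* was highest, with a mean of 341 over the 6 libraries (range 293 to 385), followed by *C1qa* at 219 (172 to 254). *Mrc1* (132), *Csf1r* (125), *Cd68* (122), *Cx3cr1* (105) and *Lyz2* (79.0) came next, and among these 5 each overlapped the gene after it. *C1qa* and *Mrc1* did not overlap, and neither did *Lyz2* and *Adgre1*. *Adgre1* (41.9) and *Aif1* (33.0) overlapped each other and lay below, and *Ptprc* was lowest at 14.1 (11.8 to 16.1). With the length of all annotated exons in place of the longest transcript, *Ptprc* was at 3.90 and stayed lowest, and *Aif1* was at 18.9.

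Other macrophage genes were described from a list of 45, all found in the table, of which 43 were tested. Again 0 passed the adjusted threshold. The differences were above 0 for 34 of the 43 (79.1%, against 49.5% of tested genes), with a median of 0.16. At an unadjusted p under 0.05 (limma) 8 differed, all of them higher in mutant pools (18.6%, against 6.67% of tested genes that were higher). For 6 of the 43 every mutant pool lay above every control pool, against 9.77% of tested genes. Without control pool 3, 29 of 42 differences were above 0, against 50.9% of tested genes, with a median of 0.11. At an unadjusted p under 0.05, 7 were then higher, against 8.37% of tested genes.

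*Spi1*, which encodes PU.1 and is listed under its older symbol *Sfpi1*, was at 105, 88.8 and 106 in the control pools against 129, 144 and 144 in mutant pools. Every mutant pool was above every control pool, and control pool 3 was not low. The log2 difference came to 0.47 (95% interval 0.19 to 0.76, unadjusted p = 0.00429), which did not pass the adjustment over all genes (limma adjusted p = 0.151).

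*Ly86*, a partner of a Toll-like receptor relative on myeloid cells, had counts of 56.0, 41.3 and 44.7 in the control pools against 96.0, 69.6 and 71.7 in mutant pools. The groups did not overlap, and the log2 difference was 0.72 (95% interval 0.29 to 1.16, adjusted p = 0.147). *Csf2ra*, a chain of the GM-CSF receptor, was at 323 ± 10.5 (SD, n = 3) in control and 395 ± 29.4 (SD, n = 3) in mutant pools (log2 difference 0.29, adjusted p = 0.16). *Laptm5*, a lysosomal membrane protein of blood cells, was at 414 ± 36.6 and 501 ± 23.8 (0.28, adjusted p = 0.177), again with no overlap. *Lcp1*, an actin-bundling protein, had the highest mean of the list, with 1213 in control and 1347 in mutant pools (0.15, adjusted p = 0.378).

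Some genes tied to resident macrophages were nearly absent and others were not. *Timd4*, *Cd163* and *Vsig4* had at most 2.07 normalized counts in any library, and *Cd163* and *Vsig4* did not pass the filter. Over all libraries *Siglec1* had a mean of 5.66, while *Folr2*, *Pf4* and *F13a1* had means of 22.9, 269 and 415. *Fcrls* and *Trem2*, known from microglia and other tissue macrophages, were measured at 201 ± 68.4 and 45.1 ± 4.19 in the control pools against 232 ± 28.5 and 53.1 ± 6.10 in mutant pools (SD, n = 3), with overlapping groups. *Timd4*, *Cd163*, *Vsig4*, *Siglec1*, *Folr2*, *Pf4*, *F13a1*, *Fcrls* and *Trem2* were named after their values were seen.

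Signals that draw or feed macrophages were taken from a list of 11 genes, of which 10 were tested and 0 passed the adjusted threshold. *Csf1* was at 563 ± 81.1 (SD, n = 3) in control and 614 ± 65.3 (SD, n = 3) for mutant lungs, a log2 difference of 0.13 (95% interval -0.11 to 0.37), while *Il34*, which encodes the other ligand of the same receptor, had at most 8.95 normalized counts in a library. Both ligands were named after their values were seen. *Tgfb1*, which encodes a cytokine that shapes macrophage identity among many other roles, had the lowest p of the list, at 909, 949 and 888 in the control pools against 1076, 1077 and 1139 in mutant pools. Its groups did not overlap, and the log2 difference was 0.26 (95% interval 0.14 to 0.38, limma adjusted p = 0.071). The chemokine gene *Ccl2* was at 8.84, 13.4 and 1.99 in the control pools against 20.4, 11.8 and 20.6 in mutant pools (1.27, adjusted p = 0.34). The related chemokine gene *Ccl12* had a log2 difference of -0.67 (adjusted p = 0.53). *Cxcl12*, a chemokine gene with the highest mean of the list, was highest in control pool 3 (5675) and lowest in control pool 2 (2782), with a difference of 0.14. Without control pool 3, *Cxcl12* (0.42, limma adjusted p = 0.0112) and *Tgfb1* (0.24, limma adjusted p = 0.0329) passed the threshold. The other 8 did not, while 2.75% of all genes did.

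**Figure D3:**
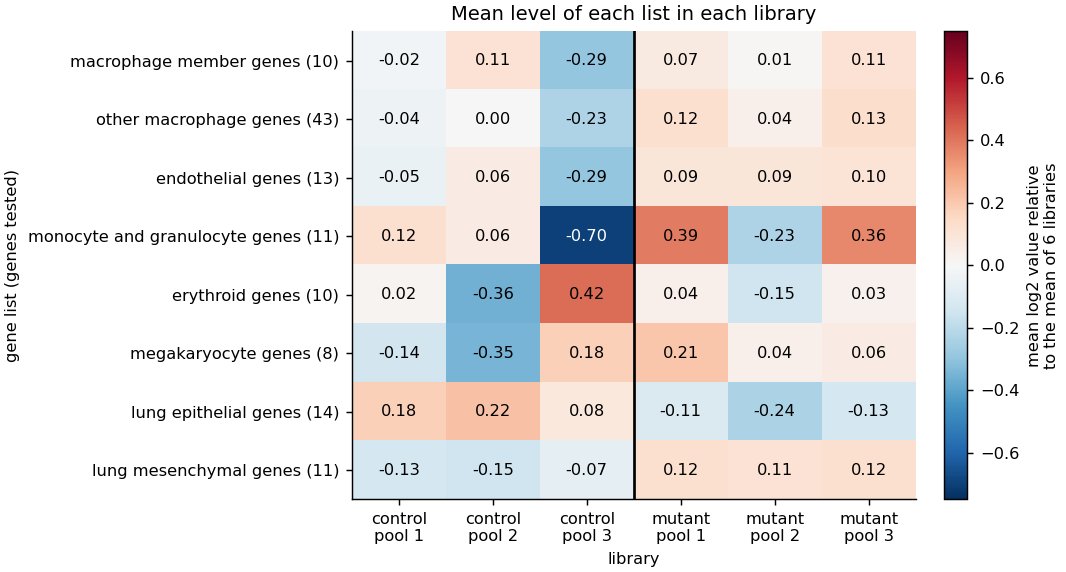
Mean log2 level of 8 gene lists in each library, relative to the mean of the 6 libraries, on a colour scale from blue (lower) to red (higher). In control pool 3 the macrophage genes (-0.29), the other macrophage genes (-0.23) the endothelial genes (-0.29) and the monocyte and granulocyte genes (-0.70) are at their lowest, and the erythroid genes (0.42) at their highest.

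Endothelial genes followed the macrophage genes across the control pools, while erythroid and megakaryocyte genes ran in the opposite order there. The mean log2 level of the 10 macrophage genes, relative to all 6 libraries, was -0.02, 0.11 and -0.29 for the control pools, followed by 0.07, 0.01 and 0.11 for the mutant pools. For the 13 endothelial genes it was -0.05, 0.06 and -0.29 and then 0.09, 0.09 and 0.10. Control pool 3 had the lowest value for 11 of these 13 genes. In the control pools the mean level was 0.02, -0.36 and 0.42 for erythroid genes and -0.14, -0.35 and 0.18 for megakaryocyte genes. Of the endothelial genes 11 of 13 had differences above 0 (49.5% of all tested genes did), with a median of 0.20, and 0 passed the adjusted threshold. At an unadjusted p under 0.05 (limma), 7 were higher in mutant pools (53.8%, against 6.67% of tested genes that were higher). Without control pool 3 the median was 0.12 and 1 gene, *Tie1*, passed (0.21, limma adjusted p = 0.0301), where 2.75% of all genes did. *Tie1*, a receptor of vessel walls, was at 2073 ± 181 in control and 2493 ± 16.4 in mutant pools (SD, n = 3, log2 difference 0.27, adjusted p = 0.092). *Cdh5*, the cadherin of endothelial junctions, differed by 0.20 and *Cldn5*, an endothelial tight junction protein, by 0.29, while *Kdr*, the main VEGF receptor, differed by -0.01.

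Epithelium and mesenchyme were the lists in which genes passed the adjusted threshold, which 0.501% of all tested genes passed. Of 14 epithelial genes 5 fell in the mutant pools (*Cdh1*, *Cldn6*, *Cldn4*, *Krt8* and *Krt18*), and the summed level of the list was 19601 to 21835 in control and 15858 to 17228 in mutant pools. Of 11 mesenchymal genes 4 rose (*Col1a1*, *Col1a2*, *Col3a1* and *Fgf10*), with list sums of 94827 to 101041 and 115520 to 123342. Most of these sums came from the collagen genes, with means over all libraries of 23814, 27455 and 30124. The mesenchymal genes that did not pass differed by 0.03 (*Foxf1*) to 0.32 (*Twist1*), both named after their values were seen. *Id2*, with the highest mean of the epithelial list, differed by 0.01. Without control pool 1 or mutant pool 3, 0 genes of both lists passed. Without control pool 3, 11 epithelial genes (9 lower and 2 higher) and 5 mesenchymal genes did, against 2.75% of all genes. The part of these shifts in the share of RNA from macrophages was not tested.

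Among other white blood cells, lymphocyte genes gave few counts, and monocyte and granulocyte genes gave more. The 12 lymphocyte genes summed to between 35.4 and 59.9 normalized counts per library, and 6 of them, including the T cell gene *Cd3e*, did not pass the filter. The 12 monocyte and granulocyte genes summed to 325 to 361 in control and 398 to 445 in mutant pools. Of the 11 tested, 9 had differences above 0 (49.5% of all tested genes did), with a median of 0.34, and 0 passed the adjusted threshold. Without control pool 3, 6 of 10 were above 0, against 50.9% of tested genes, with a median of 0.25. *Ccr2*, the chemokine receptor of monocytes, was at 6.88, 6.20 and 5.96 in the control pools against 10.2, 18.6 and 10.8 in mutant pools (log2 difference 0.91, adjusted p = 0.286), and *Ly6c2*, a surface marker of monocytes, had at most 1.03. *Prtn3* and *Mpo*, which encode enzymes of early granules, differed by 0.54 and 0.26, *S100a8*, a calcium-binding protein gene of neutrophils, by 1.17, and *Plac8*, with the highest mean of the list, by 0.14. *Cd3e* and *Ly6c2* were named after their values were seen.

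**Figure D4:**
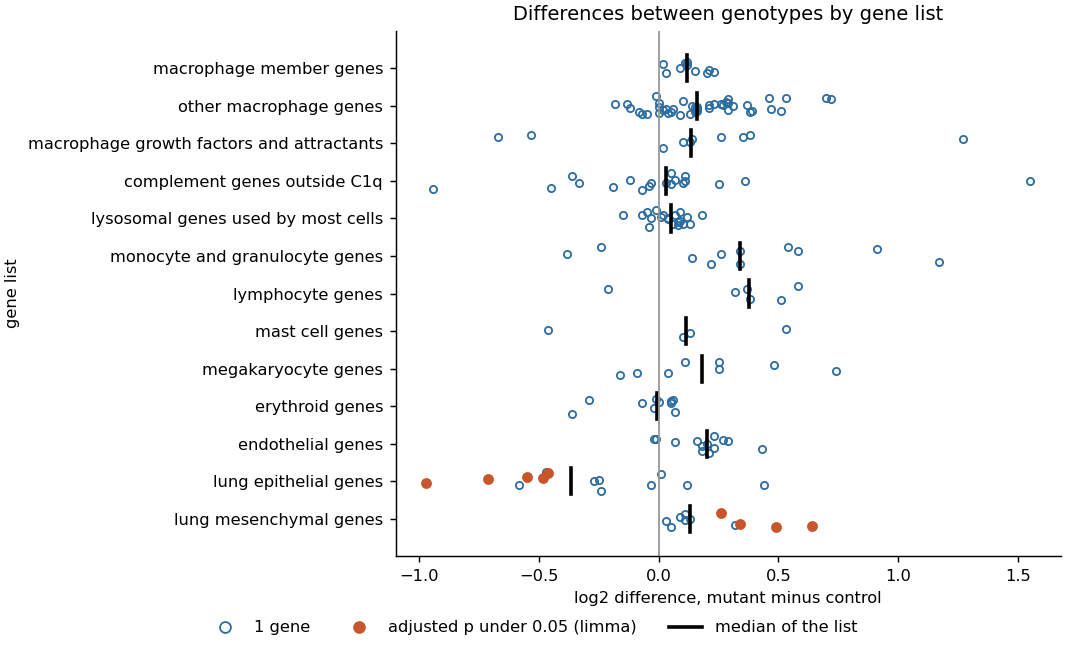
Log2 difference between mutant and control pools (horizontal axis) for each tested gene of 13 lists, with the median of each list (black bar) and genes with an adjusted p under 0.05 (orange). The macrophage lists have medians of 0.12 and 0.16 with 0 genes past the threshold, while 5 epithelial genes are lower and 4 mesenchymal genes higher.

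The genes most like the mean profile of the 10 macrophage genes over the 6 libraries included 0 genes of the macrophage lists. Among 13710 tested genes with a mean of at least 20, the 10 closest were *Tcf19*, *Ube2j2*, *Snhg6*, *Stab2*, *Col22a1*, *Tm2d2*, *Ndufb7*, *Serpine2*, *Matn4* and *Ywhae*, with Pearson's r of at least 0.99 after rounding, as a measure of likeness over 6 libraries and with no test. *Matn4*, for example, was at 439, 507 and 304 in the control pools against 503, 483 and 510.4 in mutant pools. All 10 had their lowest value in control pool 3. The 38 other macrophage genes with a mean of at least 20 had a median r of 0.58 with the same profile, and 32 were above 0. Over all 13710 genes the median r was 0.02, and 7044 were above 0.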

How the data were processed

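Reads of 6 pooled-lung libraries came from the BGISEQ-500 platform. The submitters' processing notes name Trim Galore, HISAT2, featureCounts, DESeq2 and mm10, with no versions. The authors deposited 1 table whose signal values are normalized counts, meaning read numbers per gene scaled by a factor for each library. The authors' fold changes and p-values in the same table were not used. In 5 libraries 100% of values were whole multiples of 1 step (tolerance 0.01 reads), giving 20197642 to 21276090 reads. The step of control pool 3 is close to 1, which the recovery rule treats as rounding. Its reads were therefore not used, and count tests ran on 5 libraries.

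Differences were tested with limma 3.58.1 (R 4.3.3; lmFit, eBayes with a trend) on log2(normalized count + 1), for the 17168 genes that reached 1 in 3 or more libraries. The Benjamini-Hochberg threshold was 0.05. Fold changes on this scale understate changes of low genes. In data simulated for limma on 6 libraries, 200 genes were changed by a log2 value of 1 or -1. Of these, 187 were called, with 0 false calls, among 17864 tested. The simulation gave every gene the same spread setting and changed only genes above a set mean. Spread between the real pools varied by gene, and the 10 macrophage genes differed by 0.02 to 0.23. The simulation therefore does not give the power or the false calls for these data. Alternatives were limma without trend, upper-quartile scaling (75th percentile), other filters (none, or 10 in every library), 0.1 as pseudocount, the replicate number as a block, each library left out in turn, edgeR 4.0.16 and DESeq2 1.42.0.

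The macrophage genes and the 12 other lists (189 genes) were chosen with earlier results of these data known. Beside the 10 genes, the text names, from each list, genes with an adjusted p under 0.05, the 3 with the lowest p and the 2 with the highest mean, the 10 genes with the most similar profile, the targeted gene *Rptor*, and *Lyz1* and *C1qc* as relatives of the genes described. Others are marked where they appear. For 5 genes an older symbol was found in the RefSeq table (GRCm38.p6), and 2 list genes had no match. Coordinates are those of GENCODE M21 (GRCm38). Counting errors do not cover variation in library making, and intervals hold it together with the variation between pools.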

Additional observations from a re-analysis of the deposited data

How the results depend on the processing

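The count of macrophage genes past the adjusted threshold was 0 in each direction under all 14 alternatives, for the 10 genes and for the other macrophage genes. Of 140 single log2 differences under these alternatives, 128 kept their direction and 12 changed sign, and 1 had no adjusted p in DESeq2. *Csf1r* went to -0.01 without control pool 3 and to -0.02 with edgeR and with DESeq2, *Mrc1* to -0.17, -0.18 and -0.18, and *Lyz2* to -0.08, -0.05 and -0.05. *Lyz2* also went to -0.07 without mutant pool 1 and to -0.11 without mutant pool 3, and *Cd68* to -0.03 without mutant pool 3. With 1 pool left out in turn, *Csf1r* ranged from -0.01 to 0.25, *Cx3cr1* from 0.04 to 0.29, *Adgre1* from 0.01 to 0.25, *Aif1* from 0.05 to 0.37, *C1qa* from 0.12 to 0.34, *C1qb* from 0.08 to 0.25, *Ptprc* from 0.01 to 0.23, *Cd68* from -0.03 to 0.09, *Lyz2* from -0.11 to 0.23 and *Mrc1* from -0.17 to 0.33. edgeR and DESeq2 were run without control pool 3 by construction. The lists other than macrophage genes had 4 genes higher and 5 lower at the adjusted threshold. Without the trend of limma both counts were 0, with edgeR they were 11 and 9, with DESeq2 7 and 9, and with 1 pool left out they ranged from 0 to 11 and from 0 to 9 (1 and 1 without mutant pool 1, 1 and 2 without mutant pool 2, 11 and 9 without control pool 3). Over all tested genes the count was 86, with 8 without the trend, 545 with edgeR, 416 with DESeq2, and 1, 147 and 468 without control pools 1, 2 and 3 and 12, 21 and 1 without mutant pools 1, 2 and 3. The cause was not tested. Same-numbered control and mutant pools had correlations of deviations of -0.019, 0.101 and 0.031, so no strong shift shared by them was seen. Whether same-numbered pools share litters or a batch cannot be told from these values. With the replicate number as a block 71 genes passed, 0 of them macrophage genes. For genes with few reads, such as *Aif1*, the intervals were wide.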

Other observations

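Complement genes outside the C1q chains were measured from a list of 21, of which 19 were tested and 0 passed the adjusted threshold. The differences were above 0 for 10 of the 19, against 49.5% of all tested genes, with a median of 0.03. *Serping1*, which encodes the inhibitor of the C1 proteases, had the highest mean of the list, at 1020 normalized counts in control pools and a log2 difference of 0.11. *Cr1l*, which encodes a regulator that protects cells from complement, differed by 0.05. *Masp1*, a protease of the lectin pathway, was at 159, 160.1 and 181 in the control pools against 247, 204 and 195 in mutant pools (log2 difference 0.36, limma adjusted p = 0.21), and *Masp2* differed by -0.94 (95% interval -2.06 to 0.18). *C2*, at 0.982, 7.23 and 6.96 in the control pools against 14.3, 15.7 and 11.8 in mutant pools, had no overlap between groups (limma adjusted p = 0.237). Among 20 lysosomal genes that most cells use, 14 had differences above 0, against 49.5% of all tested genes. The lysosomal median was 0.05 and 0 passed. *Hexa*, a hexosaminidase subunit, differed by 0.18, *Lipa*, the lysosomal acid lipase, by 0.12, *Npc1*, a cholesterol exporter, by -0.15, and the abundant *Psap* and *Lamp1* by 0.07 and 0.06.

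Among other blood lineages, 6 of 8 megakaryocyte genes had differences above 0, against 49.5% of all tested genes. The median of the megakaryocyte genes was 0.18 (0.31 without control pool 3), and 0 passed the adjusted threshold. *Gp9*, a subunit of the platelet receptor for von Willebrand factor, was at 37.3, 33.1 and 36.8 in the control pools against 51.1, 65.7 and 65.8 in mutant pools, without overlap (log2 difference 0.74, limma adjusted p = 0.127). *Gp1bb*, a further subunit of that receptor, differed by 0.25 and *Itga2b*, the platelet integrin chain, by 0.11. *Ppbp*, a platelet chemokine, was at 251 in control pools on average and differed by 0.48 (limma adjusted p = 0.193). Without control pool 3 it differed by 0.66 and passed (limma adjusted p = 0.00546), where 2.75% of all genes did. Of 10 erythroid genes tested, 4 had differences above 0, the median was -0.01 and 0 passed. Without control pool 3, 9 of 10 were above 0, against 50.9% of the genes tested without that pool. The erythroid median was then 0.12 and again 0 passed. *Gata1*, which encodes the main transcription factor of the red lineage, differed by -0.36 (95% interval -0.85 to 0.14) and *Hba-x*, an embryonic globin gene, was at 43734 on average in control and 43490 in mutant pools. The embryonic globin *Hbb-bh1* ranged from 4545 in control pool 2 to 15059 in control pool 3, and *Hbb-y* from 49708 to 62073 over all libraries. Of 8 mast cell genes, 4 were tested and 0 passed. *Kit*, which other cells also express, was at 1033 in control pools (log2 difference 0.13), *Gata2*, a transcription factor gene of blood stem and mast cells, differed by 0.10, *Cpa3*, a mast cell protease gene, by -0.46 and *Ms4a2*, at 1.96 normalized counts or fewer, by 0.53. The 6 lymphocyte genes tested had a median of 0.38, with 0 past the threshold, and *Cd79b*, with the highest mean among them, ranged from 11.2 to 36.2. *Il7r*, *Cd79a* and *Nkg7*, which mark lymphoid cells, were at 8.83 or fewer and differed by 0.58, 0.51 and 0.37.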
